A study of Drosophila melanogaster with 8 samples.

Results

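The wild-type larval ring gland transcriptome was described from the 4 libraries of the w[1118] genotype, of 8 libraries in all. These 4 were chosen by their genotype label alone. Each library was made from 80 ring glands pooled from w[1118] larvae of the third instar at the wandering stage, about 120 h after egg laying, with males and females in equal number and animals raised at 25°C on standard food. RNA was extracted with TRIzol, selected for polyadenylated transcripts and sequenced as paired reads. The other 4 libraries came from kdm5[140] animals, which lack the histone demethylase KDM5, and were not compared here. No groups were compared, so every value is a description, given as the mean ± SD over the 4 libraries (n = 4), and values of single libraries stand in the order of replicates 1 to 4.

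The ring gland of the fly larva is a compound endocrine organ wrapped around the anterior aorta. Its prothoracic gland turns dietary sterol into ecdysone, the precursor of the steroid that times moults and metamorphosis, its corpus allatum makes juvenile hormone, and its corpus cardiacum secretes adipokinetic hormone, which mobilises stored sugar and fat. In wandering larvae the prothoracic gland is engaged in the large ecdysone pulse that precedes pupariation. Because these are bulk libraries, few cells with much RNA and many cells with little RNA cannot be told apart.

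The deposited table listed 17558 genes, and the libraries held 17163795 to 19494692 counts each (median 18435083). Levels are given as FPKM, fragment counts scaled by gene length and sequencing depth, which allows genes of different length to be set side by side. A gene was taken as detected where its FPKM was at least 1 in all 4 libraries. No library was a copy of another, as every pair differed by more than sampling noise (chi-square per degree of freedom of 10.6 to 58.0). Across the 7642 detected genes, which are not independent replicates, Pearson's r of log2(FPKM + 1) between pairs of libraries was 0.974 to 0.990. Replicate 1 stood apart from the others, with a median absolute log2 ratio to the mean of the other 3 libraries of 0.15, against 0.08, 0.10 and 0.09 in replicates 2, 3 and 4. Of all detected genes 32.7% were highest and 34.9% lowest in replicate 1, and 29.97% were highest in replicate 3 (34.7, 31.9 and 13.5% when each library was scaled to its summed FPKM). Of 5128 genes with a mean of at least 10 FPKM, 87 lay more than 2-fold from the other libraries in replicate 1, 23 in replicate 2, 32 in replicate 3 and 64 in replicate 4.

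All 5 genes that mark the 3 endocrine parts of the gland were abundant in every library. The prothoracic gland markers sad, phm and spok ranked 3, 4 and 6 among all genes, the corpus cardiacum hormone gene Akh ranked 37 and the corpus allatum gene jhamt ranked 152. Detected genes numbered 7642 (43.5% of those listed), with a median level of 16.7 FPKM and quartiles of 7.41 and 37.5 FPKM. A further 8733 genes were under 1 FPKM in every library, and 4232 of the 17558 had no count in any of the 4.

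A small set of genes held much of the transcriptome. The 115 genes with a mean of at least 1000 FPKM carried 50.0 ± 0.626% of all FPKM, the 607 genes between 100 and 1000 FPKM carried 24.5 ± 0.224%, and the 4406 genes between 10 and 100 FPKM carried 22.9 ± 0.539%. The 3126 genes between 1 and 10 FPKM added 2.40 ± 0.101%. The 10 most abundant genes held 14.1 ± 0.625% and the 100 most abundant held 46.9 ± 0.547%. Of those 100, 69 encoded cytosolic ribosomal proteins, 6 lay in the mitochondrial genome, 3 were ecdysone synthesis enzymes, 3 were translation elongation factors, 3 were heat shock proteins or cognates and 3 were tubulins or actin. The sterol transporter gene Npc1a, the ecdysteroid importer gene Oatp74D and Akh were also among them.

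**Figure D1:**
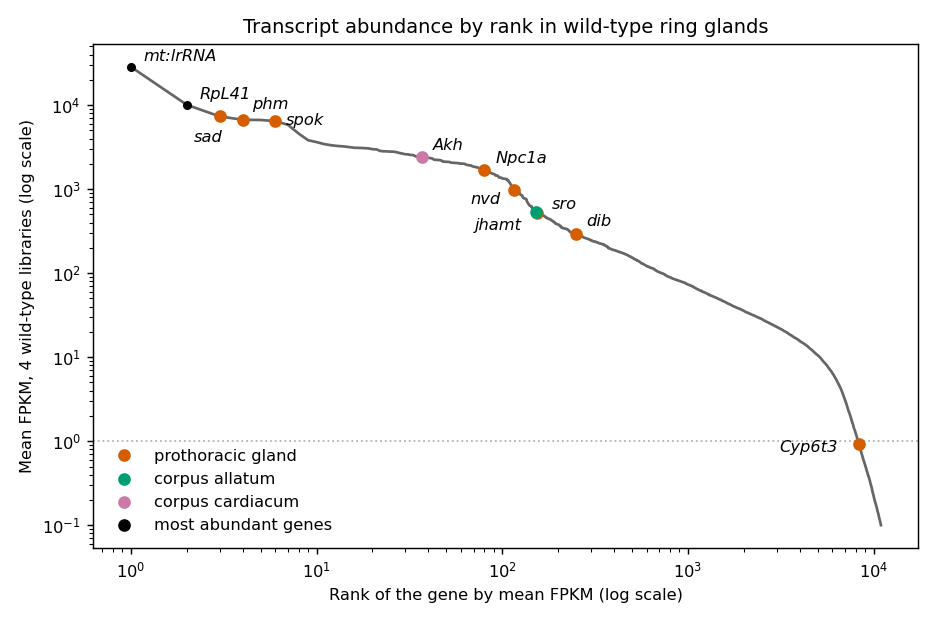
Mean FPKM over the 4 wild-type libraries (vertical axis, log scale) against the rank of the gene by mean FPKM (horizontal axis, log scale), with ring gland genes marked by the part of the gland they belong to and a dotted line at 1 FPKM. The ecdysone enzyme genes sad, phm and spok sit at ranks 3, 4 and 6, Akh at 37 and jhamt at 152, while Cyp6t3 lies below the line at 0.916 FPKM.

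The ecdysone synthesis enzymes were the most prominent group particular in function to an endocrine gland: 8 genes, of which 6 were detected, summed to 3.78 ± 0.186% of all FPKM. sad, which encodes the cytochrome P450 that hydroxylates carbon 2 in the last step inside the gland, was the most abundant protein-coding gene after RpL41, with 7742, 7174, 7283 and 7170.2 FPKM (7342 ± 271). phm, which encodes the carbon 25 hydroxylase, had 6922, 6369, 6544 and 6924 FPKM (6689.9 ± 279). spok, a P450 gene of the early steps known as the black box, had 6701, 6270.3, 6363 and 6464 FPKM (6449.8 ± 186). These 3 P450 genes therefore stood within a narrow band, in which sad was above phm in every library without overlap (ratio 1.10 ± 0.0422), whereas phm was above spok within each of the 4 libraries (ratio 1.04 ± 0.0239) although their ranges overlapped.

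The remaining detected enzyme genes stood well below that band and followed a fixed order in all 4 libraries. nvd, which encodes the Rieske oxygenase Neverland that converts cholesterol to 7-dehydrocholesterol, had 1034, 955, 1022 and 946 FPKM (989 ± 45.1), and spok exceeded it by a ratio of 6.53 ± 0.251. sro, the gene of the short-chain dehydrogenase Shroud of the black box, had 465, 516, 588 and 524 FPKM (523 ± 50.5). dib, which encodes the carbon 22 hydroxylase, had 275, 315, 306 and 289 FPKM (296 ± 17.7). Thus genes of consecutive P450 steps differed by more than an order of magnitude, with sad over dib at 24.9 ± 2.32, and no neighbours among spok, nvd, sro and dib overlapped.

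A pair of listed enzyme genes stayed under the detection floor. Cyp6t3, a P450 gene also placed in the black box, had 1.16, 0.803, 1.12 and 0.584 FPKM (0.916 ± 0.273), which rested on 36, 23, 32 and 19 counts. spo, the relative of spok that serves the embryo and ovary, had a single count in replicate 2 and none in the other libraries, so its mean of 0.00594 FPKM became 0 without that library. shd, the P450 gene that converts ecdysone to its active form in peripheral tissues, was at 0.235, 0.118, 0.0590 and 0.155 FPKM (0.142 ± 0.0737).

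In the deposited table, whose coordinates are in the dm6 build, sad spans chromosome 3R, 11877235 to 11879754, phm spans X, 18685766 to 18688433, and spok spans 3R, 3322810 to 3354486. nvd spans 3L, 24324866 to 24401655, sro spans 3R, 29794597 to 29795805, and dib spans 3L, 4062292 to 4064551. Exons of sad, sro and dib overlap exons of protein-coding genes on the opposite strand in the Ensembl annotation. The strand setting of the counting is not given in the sources used here, so reads of such partners cannot be told apart. No exon of another protein-coding gene overlaps exons of phm or spok.

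The P450 genes as a family were dominated by the same 3 enzymes. Of 92 genes with a p450 domain in the deposited annotation, 27 were detected and 63 had a mean under 1 FPKM. sad, phm and spok together made 89.4 ± 1.47% of the summed P450 level, and the domain as a whole held 3.88 ± 0.157% of all FPKM, more than any other domain named in the table. Only 6 P450 genes reached 100 FPKM, the others being Cyp4g1, Cyp6g2 and dib. Cyp4g1, an oenocyte gene of cuticular hydrocarbon synthesis, had 806, 1512, 1381 and 1124 FPKM (1206 ± 311), lowest in replicate 1. Below these came Cyp12e1 at 62.0 ± 1.48 FPKM, Cyp310a1 at 60.2 ± 12.6 FPKM and Cyp6v1 at 38.2 ± 9.41 FPKM.

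Some genes that bring sterol to the prothoracic gland enzymes or move their product were also abundant. Npc1a, which encodes the Niemann-Pick protein that releases cholesterol for steroid synthesis, had 2025, 1594, 1638 and 1539.5 FPKM (1699 ± 221). Its transcript is long, and it took 0.855 ± 0.0903% of all counts, which ranked it 6 by counts and 80 by FPKM. Oatp74D had 1203, 1489, 1371 and 1928 FPKM (1498 ± 309.7), with replicate 4 highest. Start1, a relative of the vertebrate steroidogenic acute regulatory protein, had 956, 1005, 1019.9 and 894 FPKM (969 ± 57.0). The partner of Npc1a in the lysosome, Npc2a, stood at 54.1 ± 8.35 FPKM, so the ratio of Npc1a to Npc2a was 32.0 ± 6.76.

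A glutathione transferase gene and a membrane steroid-binding protein gene, both chosen after values were seen, lay close to Start1. GstE14, known as noppera-bo and needed for cholesterol handling in the gland, had 817, 854, 870.2 and 821 FPKM (841 ± 25.9). MSBP had 907, 906, 943 and 874 FPKM (908 ± 28.2). Both varied little between the libraries, with coefficients of variation (CV, SD over mean) of 3.08% and 3.11%. They come from a list of 14 steroid and sterol genes added after values were seen, of which 7 were detected. Npc1b, Npc2d, Npc2h, mag, CG8112, Lip3 and Cyp12a4 of that list each had a mean under 1 FPKM. The electron donors of the mitochondrial P450 enzymes were far lower: the adrenodoxin reductase gene dare stood at 12.2 ± 0.683 FPKM, the ferredoxin gene Fdxh at 10.3 ± 1.23 FPKM and the ferredoxin gene CG1319 at 47.5 ± 4.66 FPKM.

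Regulators of ecdysone synthesis covered a wide range. CG11762, the zinc finger gene ouib that acts on spok, had 339, 316, 367 and 325 FPKM (337 ± 22.3). vvl, a POU domain gene required for the enzyme genes, had 346, 273, 271 and 313 FPKM (301 ± 35.7). br, the Broad gene of the ecdysone response, had 121, 78.8, 81.3 and 72.2 FPKM (88.3 ± 21.9), and replicate 1 was above the other 3. mld, a zinc finger gene that acts on nvd and spok, stood at 60.3 ± 6.83 FPKM, kni at 37.6 ± 6.72 FPKM and the nuclear receptor gene ftz-f1 at 1.5 ± 0.348 FPKM. sens was the only one of the 23 genes in this list below the detection floor, at 0.285 ± 0.0371 FPKM.

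Receptor genes through which the brain, nutrition and growth factors act on the gland were detected at modest levels. tor, which encodes the receptor of prothoracicotropic hormone, had 72.6, 51.2, 48.7 and 51.0 FPKM (55.9 ± 11.2), with replicate 1 apart from the rest. The activin receptor gene babo stood at 29.9 ± 3.91 FPKM, Pvr at 17.3 ± 0.607 FPKM, Egfr at 12.7 ± 0.957 FPKM, Alk at 7.70 ± 1.14 FPKM and the insulin receptor gene InR at 6.96 ± 1.59 FPKM. Both subunits of the ecdysone receptor were present, EcR at 33.1 ± 1.69 FPKM and usp at 26.7 ± 1.63 FPKM. Cyp18a1, whose product inactivates ecdysteroids, stood at 8.01 ± 1.43 FPKM.

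In the corpus allatum list, 8 of 10 genes were detected, summing to 0.285 ± 0.0151% of all FPKM. Cyp6g2, a P450 gene of this gland, had 622, 563, 599.6 and 552 FPKM (584 ± 32.5). jhamt, the juvenile hormone acid methyltransferase gene at chromosome 2L, 16365903 to 16367039, had 549, 534, 564 and 511 FPKM (539 ± 22.9). jhamt was below Cyp6g2 in each of the 4 libraries (ratio 0.925 ± 0.0293) but their ranges overlapped, whereas phm exceeded jhamt by a ratio of 12.4 ± 0.865. Of the mevalonate pathway genes that supply the juvenile hormone backbone, Hmgs stood at 328 ± 33.8 FPKM and Fpps at 170.4 ± 7.76 FPKM.

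Receptors and response genes of the juvenile hormone system were low. The allatostatin C receptor gene AstC-R1 stood at 14.2 ± 1.85 FPKM, AstC-R2 was under the floor at 0.486 ± 0.139 FPKM and AstA-R1 at 0.142 ± 0.0764 FPKM. Kr-h1, a zinc finger gene induced by juvenile hormone, had 9.08, 5.31, 4.71 and 4.86 FPKM (5.99 ± 2.08), and again replicate 1 was above the others, which lay close together.

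All 10 genes of the corpus cardiacum list were detected, and they summed to 0.459 ± 0.0705% of all FPKM, most of it from a single gene. Akh, the adipokinetic hormone gene at chromosome 3L, 4141467 to 4142070, had 1807, 2561, 2511 and 2684 FPKM (2391 ± 396). Replicate 1 was the lowest of the 4 libraries for Akh, and in that library phm exceeded Akh by 3.83, against a mean ratio of 2.88 ± 0.638 over the 4. Akh was above jhamt in every library, by a ratio of 4.45 ± 0.839.

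Genes that process peptide hormones were present at far lower levels. Phm, the peptidylglycine alpha-hydroxylating monooxygenase gene (not to be confused with phm), had 142, 144, 154 and 140.3 FPKM (145 ± 6.17). The lyase genes that complete amidation stood at 81.8 ± 3.20 FPKM for Pal1 and 16.1 ± 2.69 FPKM for Pal2. The carboxypeptidase gene svr stood at 24.3 ± 2.53 FPKM, amon, which encodes the prohormone convertase 2, at 8.03 ± 1.55 FPKM, and its chaperone gene 7B2 at 29.9 ± 4.47 FPKM. Of the 10 genes of the list, 4 were lowest in replicate 1, among them Akh, 7B2 and amon, while 3 were highest there (Pal1, svr and Sur). Both counts lay near the shares of all detected genes in that library, 34.9% lowest and 32.7% highest. CG8317, the limostatin gene, stood at 9.89 ± 1.08 FPKM, the sulfonylurea receptor gene Sur at 2.70 ± 0.715 FPKM and the transcription factor gene gl at 1.93 ± 0.607 FPKM.

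**Figure D2:**
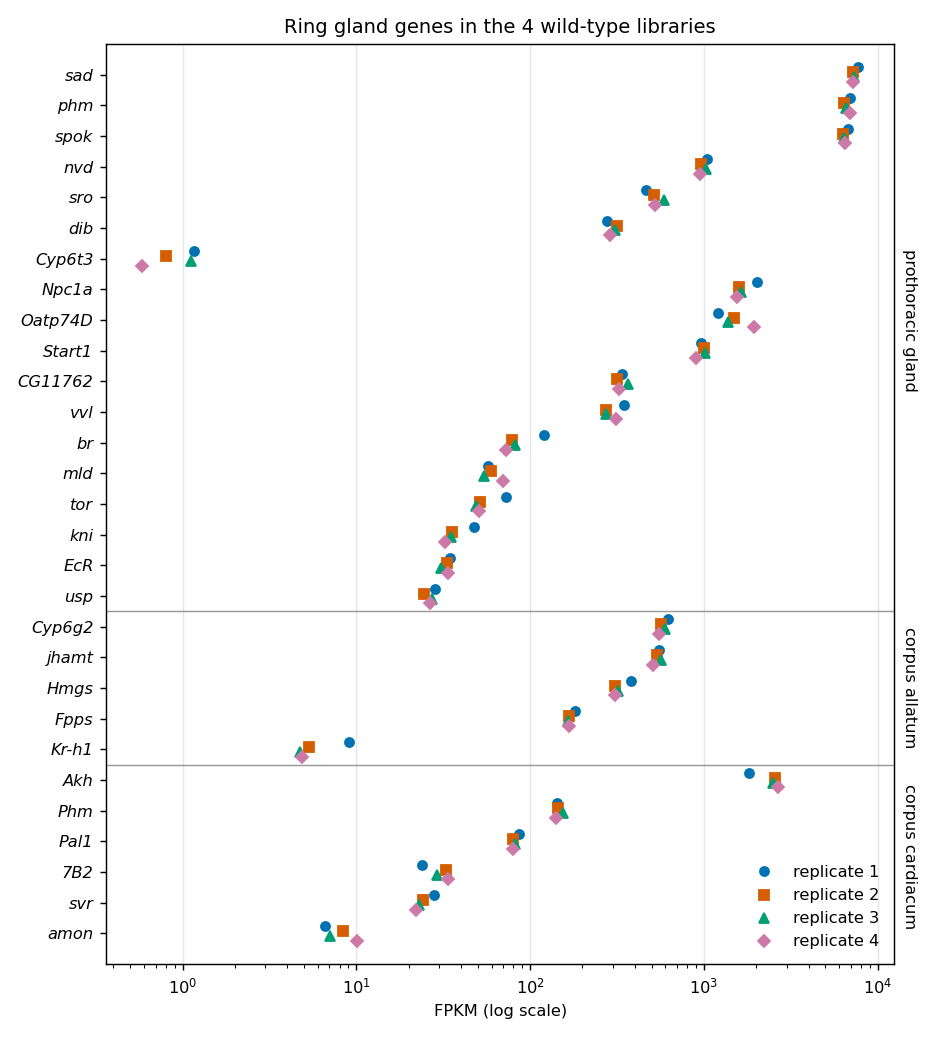
FPKM in each of the 4 wild-type libraries (horizontal axis, log scale; symbols mark replicates 1 to 4) for genes of the prothoracic gland, corpus allatum and corpus cardiacum lists. The 4 points of sad, phm and spok lie between 6270.3 and 7742 FPKM, Akh and tor have replicate 1 apart from the rest, and Cyp6t3 lies around 1 FPKM.

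Translation and mitochondrial genes made up the bulk of the other abundant transcripts. mt:lrRNA, the large ribosomal RNA of the mitochondrion, was the most abundant gene, with 30871, 26326, 31155 and 25579 FPKM (28482.5 ± 2939.9, or 4.81 ± 0.398% of all FPKM). The other 36 genes of the mitochondrial genome held 3.58 ± 0.430%, led by the cytochrome oxidase genes mt:CoIII at 6648 ± 965 FPKM, mt:CoI at 4589.8 ± 647 FPKM and mt:CoII at 3259.5 ± 375 FPKM. All 3 were lowest in replicate 4.

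Cytosolic ribosomal protein genes held 30.1 ± 1.42% of all FPKM, with 84 of 93 detected. RpL41, with a length of 320 bases, had 9283, 9931, 11478 and 9614 FPKM (10076.5 ± 971), followed by RpL27A at 3818 ± 325 FPKM, RpS27A at 3626 ± 235 FPKM, RpLP1 at 3433 ± 162 FPKM and RpLP2 at 3326 ± 189.9 FPKM. Also among the 20 most abundant genes were RpL14, RpL31, RpL29, RpS18, RpL23A and RpL23, at 2986 to 3223 FPKM. Of the 84 detected genes, 80 were lowest in replicate 1 and 79 highest in replicate 3, against 34.9% and 29.97% of all detected genes. The second count depended on the scaling of the deposited FPKM: as shares of the summed FPKM of each library, 82 were lowest in replicate 1, but 25 were highest in replicate 3 and 50 in replicate 4. On that scale 31.9% of all detected genes were lowest in replicate 1, 13.5% highest in replicate 3 and 33.2% highest in replicate 4. As these genes are short, their share of raw counts was smaller, at 15.4 ± 1.09%.

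Elongation factors held 1.72 ± 0.0345%, of which Ef1alpha48D had 6143, 5730.3, 6084 and 5377 FPKM (5834 ± 355) and EF2 stood at 1908 ± 29.0 FPKM. In the proteasome family 34 of 48 genes were detected (1.35 ± 0.0266% of all FPKM), led by Prosbeta1 at 425 ± 27.5 FPKM and Prosbeta6 at 381 ± 16.8 FPKM. Tubulin and actin genes held 1.2 ± 0.0538%, with Act5C at 2311 ± 218 FPKM and alphaTub84B at 1988 ± 121 FPKM. Members of the tubulin and actin families are near-identical in places, and how the counting treated shared reads makes their single values uncertain.

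Nuclear genes of the respiratory chain were mostly detected. ATP synthase genes held 0.810 ± 0.0384% (14 of 17 detected), led by CG1746, the subunit c gene, at 766 ± 59.997 FPKM and ATPsyn-beta at 641 ± 34.2 FPKM. Cytochrome c oxidase and bc1 complex genes held 0.682 ± 0.0395% (21 of 34 detected), with levy at 431 ± 37.2 FPKM and CG9603 at 381 ± 29.3 FPKM. Complex I genes held 0.503 ± 0.0206% (31 of 40 detected), with CG32230 at 443 ± 44.1 FPKM and mtacp1 at 155 ± 14.5 FPKM. Of 75 mitochondrial ribosomal protein genes, 74 were detected at a summed share of 0.390 ± 0.0133%, mRpL12 and mRpL20 being highest at 75.02 ± 6.47 and 67.9 ± 3.94 FPKM. In all 3 respiratory families most detected members were lowest in replicate 1: 11 of 14, 16 of 21 and 21 of 31, against 34.9% of all detected genes.

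Smaller housekeeping groups were likewise present. The 12 glycolysis genes were all detected (0.296 ± 0.0253%), led by Gapdh2 at 431 ± 27.5 FPKM and Gapdh1 at 264 ± 16.7 FPKM, and 10 of the 12 were lowest in replicate 1, where 34.9% of all detected genes were lowest. Vacuolar ATPase genes held 0.293 ± 0.0105%, with Vha16-1 at 275 ± 4.96 FPKM and Vha13 at 177 ± 15.8 FPKM. The iron storage genes Fer2LCH and Fer1HCH stood at 445 ± 40.9 and 258 ± 39.4 FPKM. Of 116 histone genes only 4 were detected, led by the polyadenylated genes His4r at 779 ± 104 FPKM and His3.3B at 394 ± 7.09 FPKM. The repeated replication-dependent histone genes lack a poly(A) tail and exist in near-identical copies, so their values here carry little weight.

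**Figure D3:**
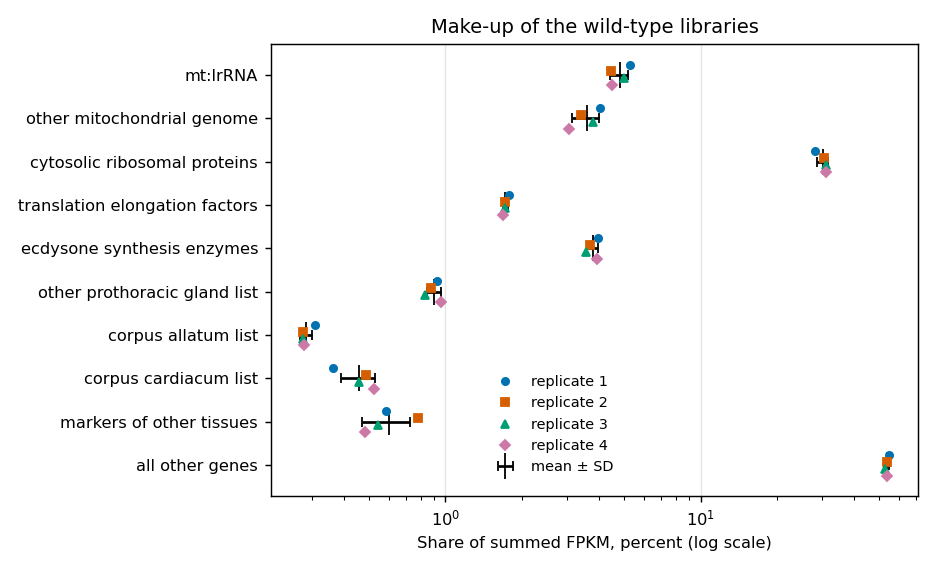
Share of summed FPKM (horizontal axis, percent, log scale) of 10 classes of genes in each of the 4 wild-type libraries (symbols), with the mean ± SD. Cytosolic ribosomal proteins held 30.1%, mt:lrRNA 4.81%, ecdysone synthesis enzymes 3.78% and the markers of other tissues 0.60%, and replicate 1 was lowest for the ribosomal proteins and for the corpus cardiacum list.

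Some abundant genes outside these lists and families were chosen after values were seen. Thor, which encodes the translation inhibitor 4E-BP, was the highest of them, with 3974, 2808, 2709.8 and 2401 FPKM (2973 ± 689). CG14075 and CG4408, which carry no gene name in the table, stood at 2059 ± 221 and 2052 ± 413 FPKM, and CG6770 at 1557 ± 299 FPKM. cu, the fly nocturnin gene, stood at 1819 ± 180.3 FPKM, Cyt-b5, an electron donor of the endoplasmic reticulum, at 1659 ± 182 FPKM, and Ance, a peptidase related to angiotensin-converting enzyme, at 1432 ± 229.7 FPKM. Of 7428 detected protein-coding genes, 2292 (30.9%) were known only by a CG number, and these held 11.4% of all FPKM.

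Heat shock genes and their constitutive cognates held 1.44 ± 0.262% of all FPKM, with a spread led by the small heat shock genes, which are also known targets of ecdysone. Hsc70-4, a constitutive chaperone gene, varied little, with 2417, 2307, 2439 and 2198 FPKM (2340.1 ± 111). Hsp23 had 2687, 1429, 1851 and 948 FPKM (1729 ± 738), Hsp27 had 2141, 1481, 1756 and 1261 FPKM (1660.0 ± 379) and Hsp26 had 416, 207, 317 and 152 FPKM (273 ± 117). For all 3 genes replicate 1 was highest and replicate 4 lowest. The inducible Hsp70 genes, in contrast, had means of 0.0790 to 1.19 FPKM, and near-identical copies among them make single values uncertain.

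Ecdysone response genes, a list of 19 added after values were seen, were mostly present, with 17 detected at a summed 1285, 952, 1022 and 883 FPKM. ImpL2, which encodes a secreted binding protein of insulin-like peptides, was highest, with 552, 434, 412 and 377 FPKM (444 ± 76.0). Eip75B, a nuclear receptor gene of the early response, had 37.8, 26.3, 22.2 and 23.8 FPKM (27.5 ± 7.08), and Eip78C had 31.6, 13.4, 12.9 and 9.95 FPKM (16.97 ± 9.88). Of the 17 detected genes, 14 were highest in replicate 1, against 32.7% of all detected genes, and their sum was highest there too.

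Further genes of this list were highest in replicate 1 as well. Hr46, the DHR3 gene, had 5.58, 1.3, 2.25 and 1.37 FPKM, and its mean of 2.63 FPKM became 1.64 FPKM without replicate 1. Hr4 had 14.3, 4.07, 5.71 and 3.39 FPKM, with a mean of 6.86 FPKM that became 4.39 FPKM without replicate 1. Hr39, another nuclear receptor gene, had 38.7, 19.7, 21.9 and 19.6 FPKM (25.0 ± 9.23), and Blimp-1 had 6.58, 2.53, 3.38 and 2.38 FPKM (3.72 ± 1.96). Eip93F, a late gene of the prepupal response, was under the floor at 0.523 ± 0.106 FPKM. The summed level of the ecdysone enzyme genes was 23141 FPKM in replicate 1, against 21599.9 to 22318 FPKM in the other 3. As a share of all FPKM they held 3.95, 3.67, 3.57 and 3.91%. Of the 6 detected enzyme genes, 3 were highest and 2 lowest in replicate 1, against 32.7% and 34.9% of all detected genes. A link between the enzyme and response lists was not tested. The ratio of replicate 1 to the mean of the other 3 was 1.05 for the enzymes and 1.35 for the response list.

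All 8 listed genes of the signalling chain below Torso were detected, among them Ras85D at 88.9 ± 4.90 FPKM and rl, the ERK gene, at 8.73 ± 1.22 FPKM. Ptth, the ligand gene expressed in brain neurons that innervate the gland, stood at 3.26 ± 0.451 FPKM, and trk, the ligand gene of Torso in the embryo, was under the floor at 0.804 ± 0.231 FPKM. The lists in this paragraph, and the insulin-like peptide, clock and KDM5 lists below, were added after values were seen. Their counts by library are therefore no independent support. In the insulin and TOR list all 16 genes were detected and all 16 were highest in replicate 1, including Thor, against 32.7% of all detected genes. The activin and BMP list had 11 of 11 genes detected. Of these, 8 were highest in replicate 1, against 32.7% of all detected genes, and 3 were highest in replicate 4. The haem synthesis genes, which provide the cofactor of P450 enzymes, were detected in 8 of 8 cases and led by Alas, the first and rate-limiting enzyme gene, with 303, 205, 207 and 169.7 FPKM (221 ± 57.0).

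The insulin-like peptide genes differed between libraries. Ilp2, an insulin-like peptide gene of brain neurosecretory cells whose axons reach the corpus cardiacum, had 4.23, 18.1, 33.8 and 35.5 FPKM (22.9 ± 14.7), and Ilp3 and Ilp5 were likewise lowest in replicate 1, at 4.5 and 4.33 FPKM. Ilp6, known mainly from fat body and glia, had 50.8, 33.0, 35.4 and 24.3 FPKM (35.9 ± 11.0), with replicate 1 highest. Ilp4 and Ilp8 had no count in any of the 4 libraries.

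Of the clock genes, which gate the hormone rhythm in the gland, cyc stood at 28.9 ± 2.59 FPKM and tim at 5.51 ± 0.419 FPKM, with 6 of 8 detected. The other 2 were Clk, the partner of cyc, at 0.0651 ± 0.0294 FPKM and per, the partner of tim, at 0.271 ± 0.145 FPKM. lid, the gene that encodes KDM5, had 23.9, 19.996, 20.3 and 21.4 FPKM (21.4 ± 1.79) in these wild-type glands. All 9 listed genes of KDM5 and the histone H3K4 methyltransferase complexes were detected, and their summed level varied by a CV of 2.86%.

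Genes listed as markers of 10 other tissues were low in sum but not absent. Whether their reads came from other tissues or from the gland itself was not tested. The 51 genes of the 4 ring gland lists held 5.42 ± 0.244% of all FPKM (5.13 to 5.68%), against 0.60 ± 0.129% for 89 markers of 10 other tissues (0.486 to 0.784%). The salivary gland glue genes were the largest class by FPKM, at 1051, 2363, 1861 and 1399 FPKM in sum, with Sgs7 at 624 ± 201 FPKM. All 7 detected glue genes were lowest in replicate 1, against 34.9% of all detected genes. By counts, which do not divide by gene length, the order turned: the glue genes held 0.0978%, against 0.1605% for the fat body list and 0.124% for the tracheal and cuticle list. The fat body list summed to 989, 673, 414 and 308 FPKM, and all 8 detected members were highest in replicate 1, against 32.7% of all detected genes. Fbp1, a larval serum protein receptor gene, was its most abundant member at 197 ± 99.5 FPKM. The glue and fat body lists thus ordered the libraries differently, with replicate 1 at the low end of one and the high end of the other.

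Most of the remaining tissue lists also had detected genes. The tracheal and cuticle list summed to 789, 753, 573 and 435 FPKM, with Gasp at 229.8 ± 16.99 FPKM, and the muscle and heart list to 324, 464, 320.1 and 388 FPKM, with Act57B at 158 ± 32.2 FPKM. Hemocyte genes summed to 128, 143, 54.4 and 53.0 FPKM, highest for PPO2 at 32.7 ± 23.3 FPKM, and glial genes to 66.6, 97.5, 91.1 and 119 FPKM, highest for nrv2 at 34.7 ± 1.51 FPKM. Neuronal genes summed to 35.9, 38.5, 30.3 and 41.8 FPKM, highest for Syx1A at 10.9 ± 1.53 FPKM. Gut genes summed to 29.6, 57.3, 8.99 and 5.98 FPKM, highest for Jon65Aiii, and imaginal disc genes to 20.8 ± 1.44 FPKM, mostly from hth at 15.4 ± 0.994 FPKM. No germ line gene was detected, aub being highest at 0.424 ± 0.119 FPKM. The part of these lists in the spread between libraries was not tested.

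**Figure D4:**
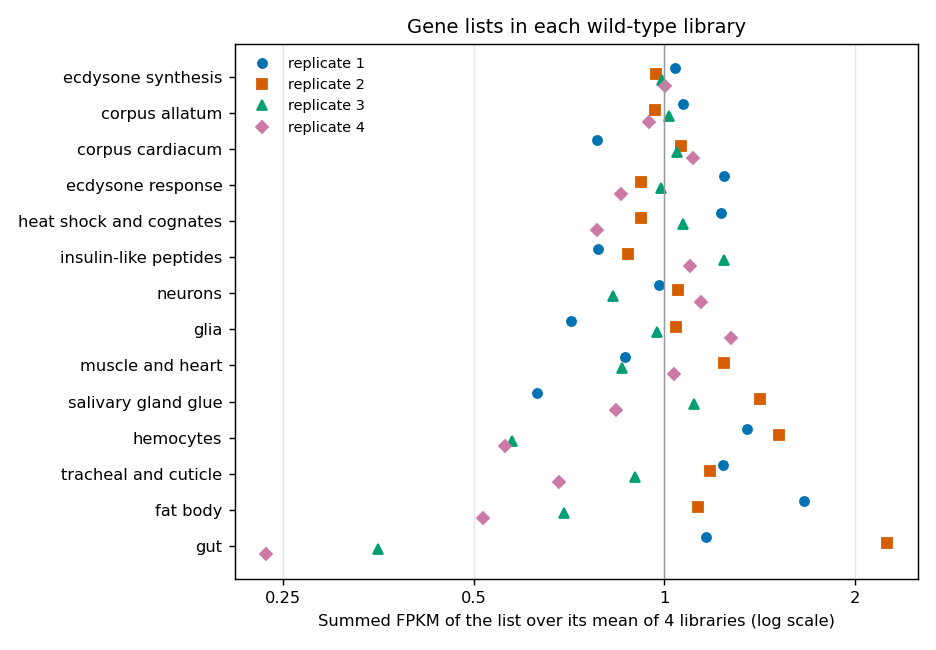
Summed FPKM of 14 gene lists in each of the 4 wild-type libraries, divided by the mean of the 4 (horizontal axis, log scale; symbols mark replicates 1 to 4). The ecdysone synthesis genes lie close to 1 (21599.9 to 23141 FPKM in sum), the corpus cardiacum and glue lists have replicate 1 lowest, the ecdysone response, heat shock and fat body lists have replicate 1 highest, and the gut list runs over 5.98 to 57.3 FPKM.

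Protein-coding genes held 94.4 ± 0.409% of all FPKM, with 7428 of 13917 detected. As RNA was selected for polyadenylated transcripts, biotype shares and levels of ribosomal and small RNA genes describe these libraries, not the whole RNA of the gland. Of 3641 genes of other biotypes 214 were detected, and without mt:lrRNA these biotypes held 0.783 ± 0.0729% of FPKM. Long noncoding RNAs (lincRNA in the table) were detected in 111 of 2366 cases and held 0.388 ± 0.0166%. CR42862 was the highest, with 734, 591, 551 and 649 FPKM (631 ± 79.6), followed by CR34335 at 206 ± 47.5 FPKM, CR42491 at 140.2 ± 16.2 FPKM, CR44042 at 97.6 ± 9.51 FPKM and pncr002:3R at 93.0 ± 41.4 FPKM. Exons of CR42862 and CR42491 overlap exons of protein-coding genes on their own strand. Of the 110 detected lincRNA genes found in the annotation, 38 overlap an exon of a protein-coding gene, 31 of them on the opposite strand. Reads of such opposite pairs cannot be told apart without strand.

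Ribosomal RNA genes other than mt:lrRNA varied widely between libraries. CR41535, on an unplaced scaffold, had 318, 696, 995 and 107 FPKM (529 ± 395), and CR41613 and CR41544 followed the same order at means of 78.9 ± 59.7 and 62.4 ± 48.9 FPKM. The 28S pseudogene 28SrRNA-Psi:CR45860 ranked the libraries in that order too, with 34.2, 73.4, 132 and 10.6 FPKM, and its mean of 62.5 FPKM became 39.4 FPKM without replicate 3. mt:srRNA, the small mitochondrial ribosomal RNA, stood at 55.1 ± 26.6 FPKM.

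The remaining classes were small in these libraries of polyadenylated RNA. Pseudogenes were led by CR18854 at 184 ± 11.0 FPKM, CR10102 at 144 ± 23.0 FPKM, CR40190 at 21.5 ± 5.83 FPKM and pncr009:3L at 20.1 ± 1.99 FPKM. Small nucleolar RNA genes, detected in 48 of 288 cases, were led by snoRNA:Me28S-A1322 at 116 ± 23.4 FPKM and snoRNA:Psi18S-531 at 59.4 ± 4.48 FPKM. They were followed by snoRNA:Me28S-A2113, snoRNA:Psi28S-612 and snoRNA:Psi18S-920 at 11.9 to 22.0 FPKM. The microRNA precursors mir-2a-2, mir-967, mir-4954, mir-281-1 and mir-4965 lay between 7.2 and 31.0 FPKM, the mitochondrial tRNA genes mt:tRNA:G, mt:tRNA:L:UUR, mt:tRNA:Y, mt:tRNA:W and mt:tRNA:L:CUN between 4.60 and 157 FPKM and the only detected spliceosomal RNA, snRNA:U12:73B, stood at 4.25 ± 3.03 FPKM. Genes this short yield few counts at a given FPKM, and the small RNA classes held 0.0899% (snoRNA), 0.0502% (tRNA) and 0.0194% (microRNA precursors) of FPKM. roX1 and roX2, noncoding RNAs of male dosage compensation, were detected at 58.0 ± 20.6 and 9.05 ± 3.50 FPKM in these pools of both sexes. In the single libraries roX1 had 56.0, 51.3, 38.0 and 86.6 FPKM and roX2 had 9.96, 6.96, 5.72 and 13.6 FPKM. Both were lowest in replicate 3 and highest in replicate 4.

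By chromosome, the median level of detected protein-coding genes was alike on the large arms (16.4 to 17.9 FPKM). The small chromosome 4 stood at 32.5 FPKM over 64 genes, and 62.2% of its genes were detected, against 38.4 to 48.7% on the large arms. None of the 71 genes on the Y was detected, with 140 counts over the 4 libraries.

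The spread between libraries was modest for most genes. Over 5128 genes with a mean of at least 10 FPKM, the median CV was 8.18% (2.75% at the fifth percentile and 26.5% at the 95th), against a median of 2.87% that counting error alone would give. Only 364 genes (7.10%) varied less than counting error. The median CV was 6.85% for genes of at least 1000 FPKM, 6.83% between 100 and 1000, 8.43% between 10 and 100 and 18.5% between 1 and 10. The common biological coefficient of variation estimated with edgeR was 18.1% over 8549 genes, and it was 14.5% without replicate 1.

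The 37 genes of the 4 ring gland lists with a mean of at least 10 FPKM had a median CV of 9.81%, between 2.88% for spok and 24.9% for br, and none exceeded 25%. Of 9 detected ring gland genes below that mean, 3 exceeded it: Kr-h1 at 34.6%, gl at 31.4% and Sur at 26.4%. The 38 genes of the other tissue lists had a median CV of 32.6%, between 4.36% for nrv2 and 116% for Jon65Aiii, and 25 of the 38 exceeded 25%. Over all 5128 genes 293 exceeded that value.

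**Figure D5:**
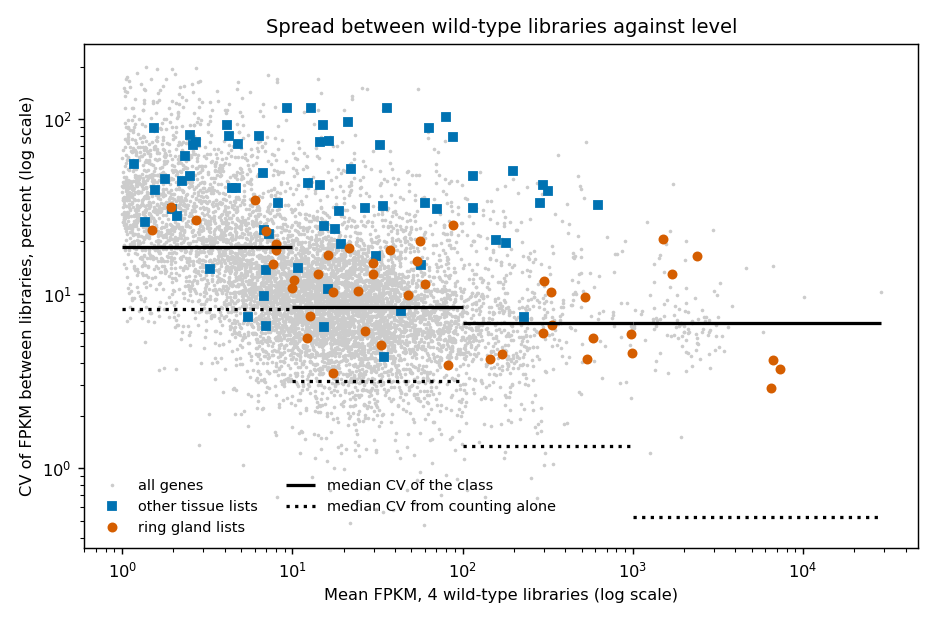
CV of FPKM over the 4 wild-type libraries (vertical axis, percent, log scale) against mean FPKM (horizontal axis, log scale) for all genes (grey), ring gland lists (orange) and lists of other tissues (blue squares), with the median CV of each level class (solid) and the median expected from counting alone (dotted). The ring gland genes of at least 10 FPKM lie at 2.88 to 24.9%, and 25 of 38 genes from other tissues lie above 25%. Among these are Jon65Aiii and He, which reached a mean of 10 FPKM only through replicate 2.

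The genes with the lowest spread had CVs from 0.472 to 0.70%. viaf had 59.3, 59.7, 59.1 and 59.3 FPKM, a CV of 0.472%, and the proteasome ATPase gene Rpt3 had 273, 274, 270.4 and 275 FPKM, a CV of 0.675%. CG17721, Maf1, MED31, Rab14, CG4806, sqd and Eip63E had CVs of 0.488 to 0.70%, and these genes varied less than counting error alone would give (0.730 to 5.42%).

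The genes with the highest spread included cuticle, serum, digestive and odorant-binding protein genes, each high in 1 or 2 libraries. CG14300 had 0.305, 5.96, 50.0 and 0 FPKM, and its mean of 14.1 FPKM became 2.09 FPKM without replicate 3. Obp56d, an odorant-binding protein gene, had 1.3, 38.7, 3.79 and 176 FPKM, and its mean of 54.97 FPKM became 14.6 FPKM without replicate 4. CG42834 and CG14332 ordered the libraries in the same way, and their means of 25.6 and 27.4 FPKM became 6.64 and 7.34 FPKM without replicate 4.

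Others were high in another library. The cuticle gene Lcp65Ab1 had 7.39, 45.4, 3.87 and 1.89 FPKM and the serine protease gene Jon65Aiii had 11.8, 34.1, 4.4 and 0.951 FPKM, and without replicate 2 their means of 14.6 and 12.8 FPKM became 4.39 and 5.71 FPKM. Lsp1alpha, a larval serum protein gene, had 98.0, 20.3, 13.3 and 12.1 FPKM, with a mean of 35.9 FPKM that became 15.2 FPKM without replicate 1. CG42500 and CR43482 were also highest in replicate 1, their means of 22.3 and 14.2 FPKM becoming 7.80 and 6.33 FPKM without it, and CG32368 was highest in replicate 3, its mean of 22.3 FPKM becoming 7.43 FPKM. Of 73 genes with a CV over 50% and a mean of at least 10 FPKM, 33 were highest in replicate 1 and 53 were lowest in replicate 4. These genes were picked by their spread, and several, such as CG14300 and CG42500, reached that mean only through their highest library. Their counts by library are therefore a description only. Of all detected genes, a set that leaves out some of the 73, 32.7% were highest in replicate 1 and 28.4% lowest in replicate 4. Among the 73 were 7 of the 8 genes with a mean of at least 10 FPKM and the chitin-binding domain of cuticle proteins (Chitin_bind_4). Of these, Lcp65Ab1 reached that mean only through replicate 2.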

How the data were processed

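Per the labels and the methods of the study, polyadenylated RNA of pooled ring glands was sequenced as paired reads on a NovaSeq instrument. The submitters' processing notes name HISAT2 2.0.5, StringTie 1.3.3b, featureCounts 1.5.0-p3, DESeq2 1.20.0 and the dm6 build. The authors deposited raw read counts per gene and FPKM values for each library. The deposited FPKM divide by gene length and by a depth proportional to the DESeq2 size factors of all 8 libraries, so summed FPKM differed between libraries (570096 to 619599). The deposited table also holds 3 columns of the authors' own comparison (a log2 fold change, a p-value and an adjusted p-value) and 2 columns of means per genotype, which were not used. The strand setting of the counting is not given in the sources used here.

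Levels, shares and CVs were computed from FPKM, and the dispersion from counts, for the 4 wild-type libraries grouped by their labels. A gene was detected at 1 FPKM in all 4 libraries, the spread was taken over genes with a mean of at least 10 FPKM, and correlations used log2(FPKM + 1). Tools were Python 3.11.15, numpy 2.4.6, pandas 2.3.3, scipy 1.17.1, matplotlib 3.10.9, R 4.3.3, edgeR 4.0.16 and DESeq2 1.42.0, and the dispersion step was checked on simulated data. Libraries of 17163795 to 19494692 counts put 3 counts at 0.154 to 0.175 CPM, and intervals from counting alone leave out variation between pools.

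Named genes were the 20 most abundant, the members of the ring gland lists, the 5 most abundant of each other biotype, the 10 of highest and of lowest CV, the leading member of each other tissue list and the 2 leading members of each family. A further 60 genes and 10 lists were added after values were seen. All members and lists were chosen with earlier results of these data known. Of 17558 gene IDs 17252 were in the Ensembl annotation used here, of which 98.4% had the same start and end. The deposited IDs of nvd, br, Phm and Pal1 were not, and overlaps of these genes are not given. Of the listed symbols, Ir, n-syb, apoLpp and Acat were not matched as spelled, and the genes of n-syb and apoLpp entered as nSyb and Rfabg. Alternatives were other detection floors, shares by counts, shares without the mitochondrial genome, counts scaled by TMM per kilobase, other filters, and leaving out each replicate. Promoter sequences were not analysed here. Some genes that the naming rule takes are not reported here.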

Additional observations from a re-analysis of the deposited data

Results flagged for a closer look

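In 253 quantities examined over the 4 libraries (levels of named genes, and shares of lists and families), 19 (7.51%) had a highest or lowest library separated from the nearest other by more than Dixon's 95% critical value. Chance alone gives about 5 in 100 groups, but the quantities include the 10 genes of highest CV and genes chosen after values were seen, so their share cannot be set against that rate. Of the 19, 12 were in replicate 1, 4 in replicate 2, 2 in replicate 3 and 1 in replicate 4.

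In replicate 1 the high values included a receptor gene and several hormone response genes. The receptor gene tor stood at 72.6 FPKM, and the response genes Kr-h1 at 9.08 FPKM, Eip74EF at 32.5 FPKM, Hr39 at 38.7 FPKM and Eip78C at 31.6 FPKM, each above the other 3 libraries. The share of the ecdysone response list was 0.219% and that of the corpus allatum list 0.307%. Lsp1alpha at 98.0 FPKM, CG42500 at 65.8 FPKM and Cyp6v1 at 52.2 FPKM were also high there, while RpL23A at 2841 FPKM and CR40190 at 12.8 FPKM were low.

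The other libraries gave single genes. In replicate 2, Lcp65Ab1 stood at 45.4 FPKM, the hemocyte gene Hml at 14.05 FPKM (its mean of 6.37 FPKM became 3.81 FPKM without that library), AstA-R1 at 0.255 FPKM and spo at 0.0238 FPKM, the last from 1 count. In replicate 3, CG14300 stood at 50.0 FPKM and CG1319 at 54.5 FPKM. In replicate 4, ftz-f1 stood at 2.01 FPKM, above the others.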

How the results depend on the processing

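No paired analysis was possible because the results come from no test. With a floor of 10 FPKM, 4771 genes were detected in place of 7642. By counts in place of FPKM, the genes holding 50% of the total numbered 290 in place of 116, the 10 most abundant genes held 12.3% in place of 14.1%, and protein-coding genes held 95.7% in place of 94.4%. Without the mitochondrial genome the 10 most abundant genes held 9.94%. With no filter on low values the median CV was 21.3% in place of 8.18%. Leaving out each replicate in turn gave 7696 to 7801 detected genes, 114 to 117 genes holding 50%, 13.9 to 14.3% for the 10 most abundant, 94.3 to 94.5% for protein-coding genes, a median CV of 5.91 to 8.81% and a common biological coefficient of variation of 14.5 to 20.2%, the lowest of both spreads being without replicate 1. Means of 3 of 4 libraries always lie within 1 SD of the mean of 4, so only changes over 1.5 times are named: Fbp2 (87.6 and 55.5 FPKM without replicate 1), Lcp1 (63.3 and 37.4 FPKM without replicate 1), Lcp4 (80.3 and 39.8 FPKM without replicate 2), He (14.6 and 9.29 FPKM without replicate 2), alrm (4.25 and 2.70 FPKM without replicate 4) and those given beside their values.

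Shares by counts differed from shares by FPKM by more than 1 SD for 31 of 38 lists and families, as gene length enters only the second. The list of sterol traffic and regulators held 2.17% of counts and 0.901% of FPKM, the corpus cardiacum list 0.206% and 0.459%, and the ecdysone enzymes 4.08% and 3.78%. Scaling counts by TMM per kilobase moved 15 of 210 named genes by over 1 SD, at a ratio of 0.961 to 0.978 to FPKM. The planned search of promoter letters was not run. At this depth a gene such as spo, with 1 count, can be neither called present nor absent.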
